A study of Danio rerio with 7 samples.

Results

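Of the 43663 probes on a zebrafish oligonucleotide array, 74 had RNA ratios that were higher in tbx5-MO embryos than in WT embryos at 30 hpf and lower at 48 hpf. They were selected on their measured values: at least 1.5-fold higher in tbx5-MO embryos on both 30 hpf arrays and at least 1.5-fold lower on all 3 arrays of 48 hpf. The rule took 78 probes, 0.179% of the array, and 4 of them were left out by symbol, 2 of ctsc and 1 each of ctssb.1 and hspa5. The remaining 74 probes are called the members here. The 30 and 48 hpf values therefore describe how the members were chosen and carry no test, and only the 24 hpf values were outside the rule.

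Each array compared RNA of whole AB-strain embryos injected at the 1-cell stage with a morpholino against tbx5 (tbx5-MO, labelled with Cy5) with RNA of uninjected WT embryos of the same stage (labelled with Cy3). There were 2 arrays at 24 hpf (hours post fertilization), 2 at 30 hpf and 3 at 48 hpf. A morpholino is an antisense oligomer that blocks the translation or splicing of its target RNA, and tbx5 encodes a T-box transcription factor of the heart and pectoral fin. No array of a mismatch morpholino was analysed here and no dyes were swapped, so loss of Tbx5, the injection itself and a dye effect cannot be told apart. Whether replicate arrays stand for separate pools of embryos is not stated, and their spread may be technical. In whole embryos, fewer cells of a type and less RNA per cell cannot be told apart, and a ratio gives no level for checking the tissue against its markers.

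The names of the array columns begin with one of 2 numbers, which are called days here although the sources do not say what they mean. The names also carry a block letter, which was not used. Replicate 1 of 24 hpf shared its day with both 30 hpf arrays, and replicate 2 of 24 hpf shared the other with the 3 arrays of 48 hpf. The contrast between 30 and 48 hpf, which chose the members, therefore cannot be told apart from the day. Pearson's r between a 30 hpf and a 48 hpf array, across probes, lay between -0.03 and 0.04 over all probes and between -0.28 and 0.02 over the probes with a value that no other probe of any array shared. Between arrays of the same stage, r over all probes was 0.07 at 24 hpf, 0.10 at 30 hpf and 0.07 to 0.14 at 48 hpf. Over the probes with unshared values it was 0.20, 0.69 and 0.69 to 0.71. On those probes 24 hpf replicate 1 had r of 0.30 and 0.40 with the 30 hpf arrays. Replicate 2 had r of -0.18 to -0.09 with those of 48 hpf. These are descriptions across probes, which are not independent.

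The members included 7 probes of 4 genes of growth arrest and the response to DNA damage, a group assigned by hand. It was not the most numerous group by role. Cells that meet DNA damage or a fault in ribosome assembly halt their cycle, repair the damage or start apoptosis, and they raise the RNA of the proteins that do so. Mdm2, a ubiquitin ligase, is raised in the same response and limits it in a negative feedback loop. This is given as background, not as an account of these data.

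Of the 43663 probes, 2638 (6.04%) passed the 30 hpf side of the rule and 913 (2.09%) passed the 48 hpf side. The opposite pattern, lower at 30 and higher at 48 hpf, was met by 158 probes. Across the members, the mean log2 ratio at 30 hpf ran from 0.62 to 2.70 with a median of 1.07. The mean at 48 hpf ran from -2.86 to -0.65 with a median of -1.12. The difference between these means had a median of 2.20 and reached 4.89 for a probe of mdm2. On single arrays, the members had medians of 1.05 and 1.06 (30 hpf) and -1.11, -0.99 and -1.09 (48 hpf), whereas the median over all probes stayed between -0.03 and 0.01 on every array.

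**Figure D1:**
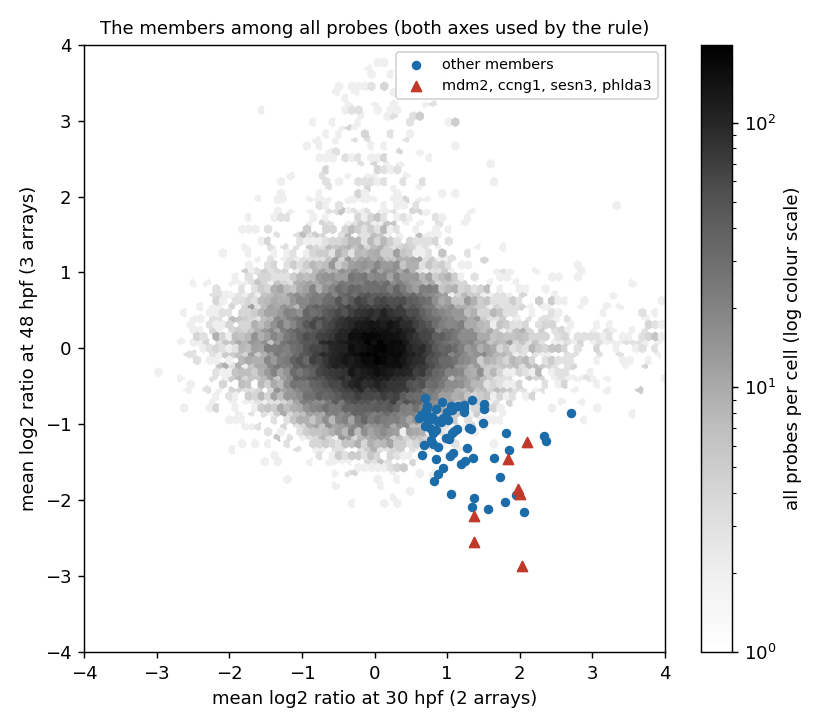
Mean log2 ratio of tbx5-MO over WT at 30 hpf (horizontal, mean of 2 arrays) and at 48 hpf (vertical, mean of 3 arrays), with all probes in grey on a log colour scale and the members as points. Both axes were used to choose the members, and the 7 probes of mdm2, ccng1, sesn3 and phlda3 (triangles) lie towards the corner of the chosen region, with 48 hpf means between -2.86 and -1.23.

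A symbol was given for 57 of the 74 members, and these carried 49 different symbols, of which 47 were found in the reference gene table and 20 had another name there. Newer names stand in brackets below. The other 17 members had no symbol. Symbols with more than 1 member probe included ccng1 with 3, and mdm2, cpsf6, ssr1 and zgc:171753 (alyref) with 2 each. Probes of one gene read the same RNA and are not independent. The positions given with the probes put 58 of the members on 22 chromosomes, with at most 7 on one, and no pair of the 47 genes placed in the reference table lay within 5 genes of each other.

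The deposited values repeat on each array, and for a probe whose value recurs many times it is unclear how much of that value was measured for the probe itself. Of the 74 members, 58 (78.4%) had values found at most 10 times on each of the 5 arrays of the rule, against 24.9% of all probes. The trait was not particular to the members, since 128 of the 158 probes with the opposite pattern met the same limit. For 40 members (54.1%) the value was found once on each of these arrays, against 7.07% of all probes. Over all 7 arrays, 54 members (73.0%) had values found at most 10 times, against 15.9% of all probes, and they are called well-measured here. The name refers to repeats alone, and not to agreement between probes or arrays. Well-measured probes of ccng1 read -6.99 and 2.29 on 24 hpf replicate 2. Over all probes with values this seldom repeated, Pearson's r between the 24 hpf arrays was 0.16. The well-measured members included 46 of the 57 with a symbol and 8 of the 17 without one. The most often repeated member value was found 127 times, for a probe without a symbol.

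**Figure D2:**
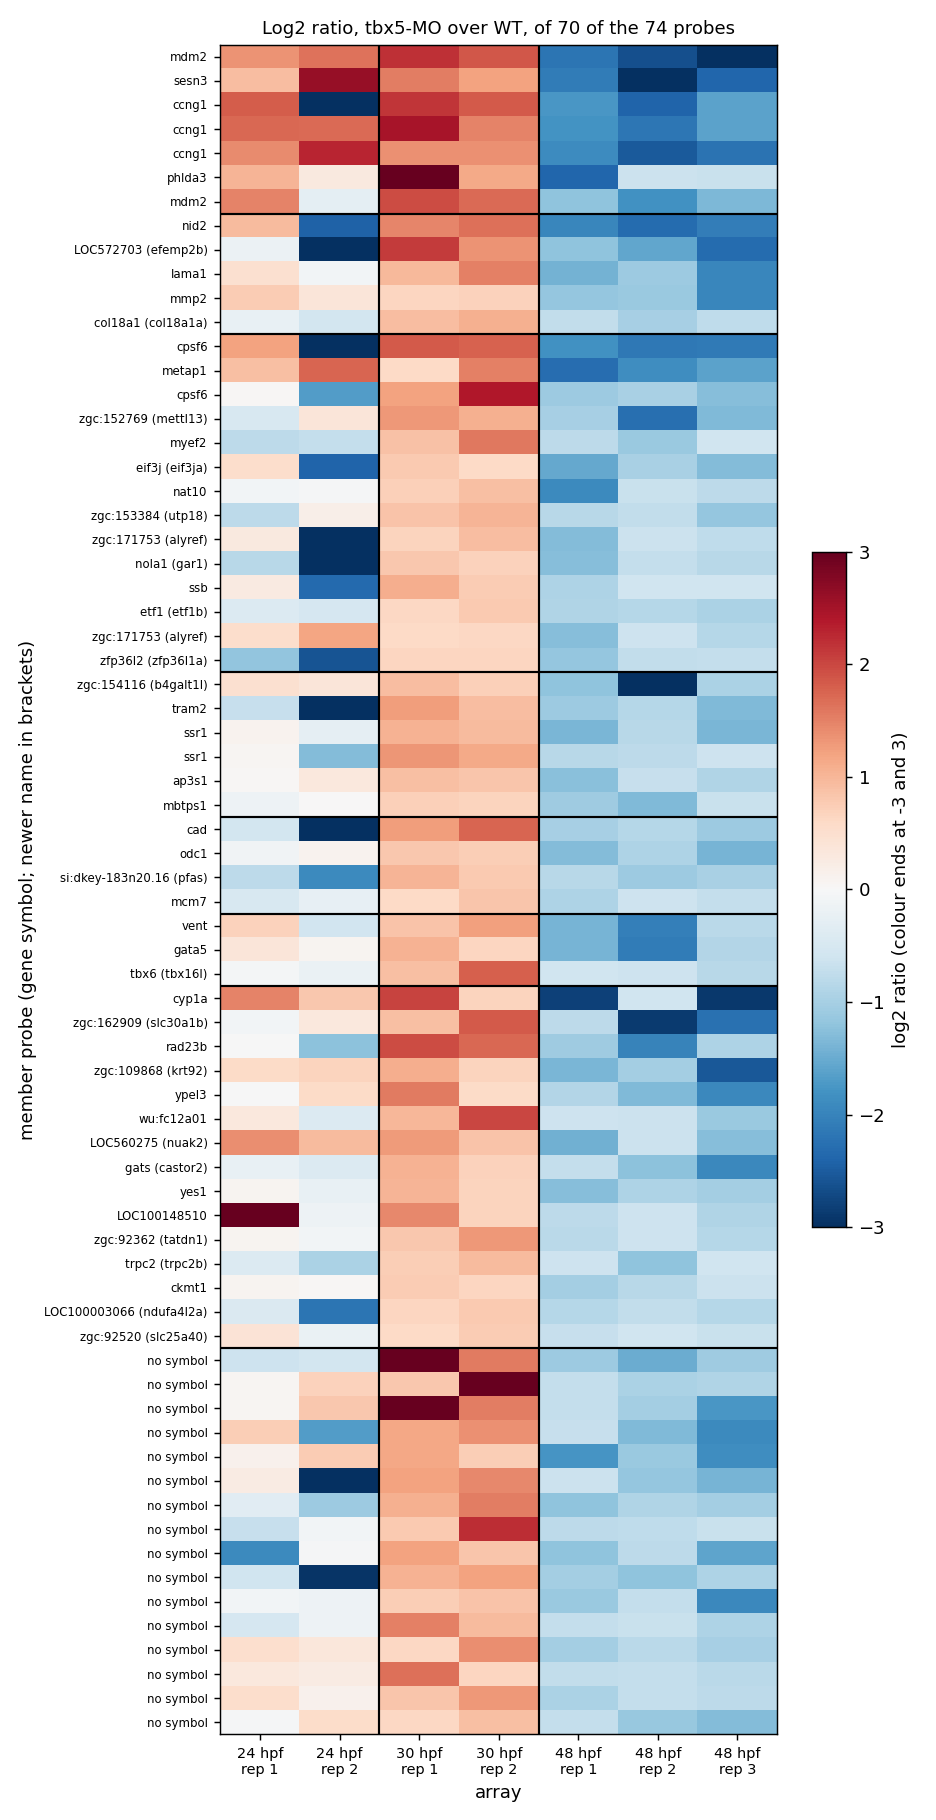
Log2 ratio of tbx5-MO over WT for 70 of the 74 members (rows, grouped by role and ordered within a group by the difference between 30 and 48 hpf) on each of the 7 arrays (columns), with colours ending at -3 and 3. The red 30 hpf and blue 48 hpf columns follow from how the members were chosen, and the 24 hpf columns, which did not enter the choice, hold both colours.

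mdm2, the gene of the ubiquitin ligase that limits the damage response, was met by a pair of probes. One (A_15_P118884) had the largest difference between 30 and 48 hpf of all members, with log2 ratios of 2.20 and 1.86 at 30 hpf and of -2.19, -2.64 and -3.75 at 48 hpf. It was higher on both 24 hpf arrays as well, at 1.34 and 1.62. The other (A_15_P148681) had 1.96 and 1.71 at 30 hpf, and -1.21, -1.81 and -1.36 at 48 hpf. At 24 hpf it read 1.48 on replicate 1 and -0.29 on replicate 2, so the second array set the probes of mdm2 apart by 1.91. On 48 hpf replicate 3 they lay further apart, by 2.40.

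ccng1 encodes cyclin G1, which is raised by DNA damage and in mammals feeds back on Mdm2. Its 3 probes had log2 ratios from 1.37 to 2.47 at 30 hpf and from -2.51 to -1.60 at 48 hpf. One probe (A_15_P193336) had 1.37 and 1.38 at 30 hpf, followed by -1.89, -2.51 and -2.21 at 48 hpf, and read 1.41 and 2.29 at 24 hpf. A second (A_15_P100851) read 1.72 and 1.69 at 24 hpf, then 2.47 and 1.49 at 30 hpf, then -1.79, -2.16 and -1.60 at 48 hpf. These probes were higher on every array of 24 and 30 hpf and lower on every array of 48 hpf. The third (A_15_P468145) had 2.16 and 1.85 at 30 hpf and -1.74, -2.39 and -1.60 at 48 hpf, but 1.81 and -6.99 at 24 hpf. Replicate 2 of 24 hpf thus read probes of the same gene 9.28 apart on the log2 scale, and its reading of the third probe was the lowest of any member on any array.

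sesn3 encodes a sestrin, one of a family of stress-responsive inhibitors of growth signalling. Its probe (A_15_P109981) had log2 ratios of 1.54 and 1.197 at 30 hpf, of -2.09, -3.18 and -2.38 at 48 hpf, and of 0.92 and 2.62 at 24 hpf. phlda3 encodes a repressor of Akt in mammals, and its probe (A_15_P105042) had 3.06 and 1.14 at 30 hpf, which turned to -2.37, -0.65 and -0.66 at 48 hpf, with 24 hpf values of 1.02 and 0.29. At 30 hpf phlda3 had a mean of 2.10 ± 1.36 (SD, n = 2), a wider spread than that of the mdm2, ccng1 and sesn3 probes at that stage. Its values were found up to 16 times on a 24 hpf array, but at most 6 times on the arrays of 30 and 48 hpf.

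**Figure D3:**
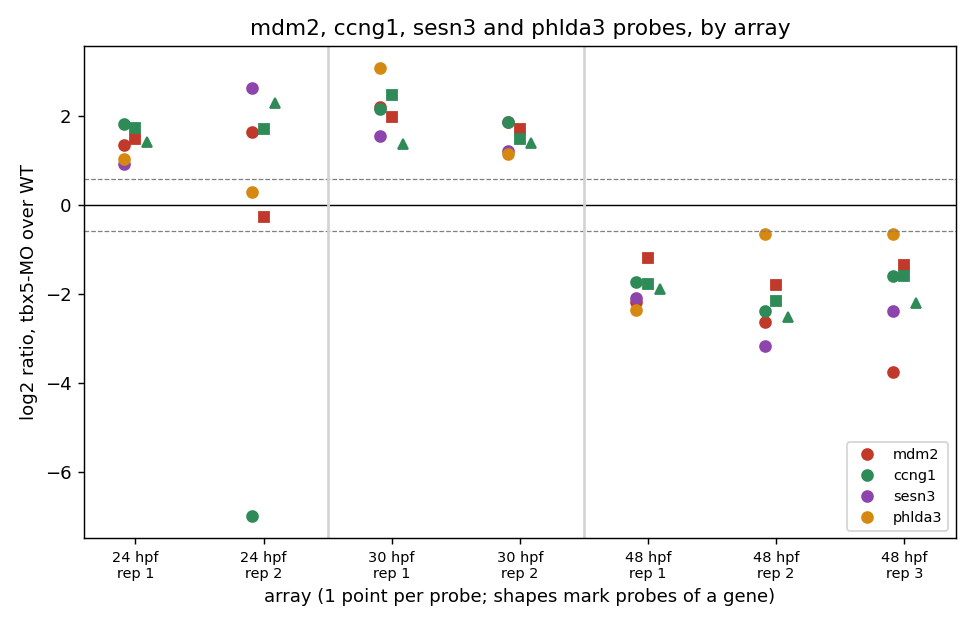
Log2 ratio of tbx5-MO over WT on each array for the 7 member probes of mdm2, ccng1, sesn3 and phlda3 (1 point per probe, colour by gene, shape by probe), with dashed lines at 1.5-fold higher and lower. All 7 lie above 0 on 24 hpf replicate 1, whereas on 24 hpf replicate 2 they run from -6.99 to 2.62.

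The list of growth arrest and damage response genes, as described here, held 12 symbols with 17 placed probes, and 7 of these probes (41.2%), of 4 symbols, were members. Among all 4278 placed probes with a symbol, 57 (1.33%) were members. Only probes in the authors' lists, at least 1.5-fold lower throughout some stage, could be placed. Genes of damage response that were lower at no stage are therefore missing from these counts, which do not give the coverage of the pathway. The list was written with earlier results of these data known and its overlap with the members was fixed by the 30 and 48 hpf values, so this is a count and not a test. Among the genes of the list outside the members, casp8, which encodes an initiator caspase, missed the 30 hpf threshold narrowly, with 0.83 and 0.57 at 30 hpf and -0.67, -1.69 and -0.90 at 48 hpf. rrm2b, which encodes a damage-inducible subunit of ribonucleotide reductase in mammals, had 0.82 and 0.04 at 30 hpf and -1.51, -2.51 and -2.45 at 48 hpf. The remaining 6 symbols of the list (baxb, ccng2, cdkn1b, mdm4, plk2 and zgc:85869) had been named through the 24 or 30 hpf lists, so every one of them was lower at one of those stages by construction. All their probes were below 0 on both 30 hpf arrays, the opposite side to the members. Only for cdkn1b, named through the 24 hpf list, was this not by construction. baxb ran fully the opposite way, with -2.54 and -1.89 at 30 hpf and 0.88, 0.34 and 0.73 at 48 hpf. The list as a whole thus did not share the pattern of the members.

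The positions given for these probes are in a build that the sources do not name, although unplaced contigs in the same column begin with Zv7. There the mdm2 probes between chr4:27583750 and chr4:27584733, and the ccng1 probes between chr14:18914728 and chr14:18920511. The sesn3 probe was at chr15:31794692-31794751 and the phlda3 probe at chr23:4266813-4266872. The probes were designed on mRNAs, and no annotation of that build was used here to place them in an exon or an untranslated region.

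Genes of RNA processing, ribosome assembly and translation made up the most numerous group by role, with 14 probes of 12 symbols, 13 of the probes well-measured. This role, like those below, was assigned by hand after the names were seen, so the numbers by role have no background over all probes. Of the 95 placed probes in the list of ribosome and translation genes, 1 (1.05%) was a member, near the 1.33% of all placed probes with a symbol. Their median mean log2 ratio was 0.87 at 30 hpf and -0.93 at 48 hpf, closer to the thresholds than the 1.98 and -1.91 of the 7 probes of mdm2, ccng1, sesn3 and phlda3. cpsf6 encodes a subunit of cleavage factor I, which acts in forming the 3′ ends of mRNAs. Its probe with the larger contrast (A_15_P109490) had 1.83 and 1.77 at 30 hpf and -1.81, -2.15 and -2.11 at 48 hpf, with 1.197 and -3.31 at 24 hpf. The other (A_15_P603642) had 1.21 and 2.41 at 30 hpf against -1.09, -0.98 and -1.27 at 48 hpf, and read 0.04 and -1.68 at 24 hpf. On both probes the 24 hpf arrays disagreed in sign.

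metap1 encodes an enzyme that removes the starting methionine of new proteins, and it read 0.90 and 1.76 at 24 hpf, then 0.59 and 1.504 at 30 hpf, then -2.28, -1.86 and -1.61 at 48 hpf. It was the only member of this group at least 1.5-fold higher on both 24 hpf arrays. nola1 (gar1) encodes a core protein of the H/ACA particles that guide pseudouridine formation in rRNA, and it had 0.82 and 0.68 at 30 hpf, which turned to -1.27, -0.72 and -0.84 at 48 hpf, with 24 hpf values of -0.84 and -3.17. zfp36l2 (zfp36l1a) encodes a protein that binds AU-rich elements and speeds mRNA decay, and it had 0.64 and 0.64 at 30 hpf against -1.16, -0.73 and -0.72 at 48 hpf, and read -1.17 and -2.58 at 24 hpf. myef2, known in mouse as a repressor of the myelin basic protein gene, read -0.78 and -0.71 at 24 hpf, then 0.89 and 1.58 at 30 hpf, then -0.79, -1.11 and -0.61 at 48 hpf. Unlike metap1, these last 3 probes were lower on both arrays at 24 hpf and higher on both at 30 hpf. For nola1 this did not hold across probes, since a further probe outside the members (A_15_P107434) read 0.33 and 0.81 at 24 hpf.

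eif3j (eif3ja), for a subunit of translation initiation factor 3, had log2 ratios of 0.78 and 0.59 at 30 hpf and of -1.53, -0.98 and -1.31 at 48 hpf. It read 0.52 and -2.40 on the 24 hpf arrays, whereas a further probe outside the members (A_15_P141826) read 0.31 and 2.29. ssb, for the La protein that binds new RNA polymerase III transcripts, read 0.28 and -2.34 at 24 hpf, and had 1.10 and 0.76 at 30 hpf and -0.93, -0.60 and -0.59 at 48 hpf. A further ssb probe outside the members (A_15_P120275) read -0.32 and 0.04 at 24 hpf. The eif3j and ssb members were near the rule's threshold on at least 1 array. zgc:171753 (alyref), for an adaptor of mRNA export, was lower by 0.63 to 1.31 at 48 hpf on both probes, which at 24 hpf replicate 2 read -4.70 and 1.19. The others in the group were nat10, an RNA acetyltransferase, zgc:153384 (utp18), a component of the machinery that assembles the small ribosomal subunit, zgc:152769 (mettl13), a methyltransferase that in human modifies a translation elongation factor, and etf1 (etf1b), the translation termination factor. Their 24 hpf values lay between -0.79 and 0.37.

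Genes of the extracellular matrix gave 5 members. They had 1 well-measured probe each. nid2 encodes a nidogen, a linker protein of basement membranes, and had 1.47 and 1.65 at 30 hpf, which turned to -1.95, -2.31 and -2.08 at 48 hpf, with 24 hpf values of 0.94 and -2.42. LOC572703 (efemp2b) was described as fibulin-4, which acts in building elastic fibres. It had 2.10 and 1.34 at 30 hpf against -1.22, -1.55 and -2.30 at 48 hpf, and read -0.17 and -3.43 at 24 hpf. A further probe of this gene outside the members (A_15_P104153) read 0.41 and -0.43 at 24 hpf. lama1, for a laminin chain of basement membranes, read 0.48 and -0.08 at 24 hpf, then 0.98 and 1.502 at 30 hpf, then -1.41, -1.09 and -1.96 at 48 hpf. These 3 had the lowest 48 hpf means of the group, at -2.12, -1.69 and -1.49. col18a1 (col18a1a), for a basement membrane collagen, had 0.92 and 1.07 at 30 hpf, which turned to -0.74, -1.002 and -0.77 at 48 hpf, with 24 hpf values of -0.23 and -0.54. mmp2, for a gelatinase that cuts matrix proteins, had 0.63 and 0.68 at 30 hpf against -1.15, -1.11 and -1.95 at 48 hpf, and read 0.76 and 0.37 at 24 hpf. No matrix member passed 1.5-fold in one direction on both 24 hpf arrays.

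The secretory pathway was represented by 6 probes of 5 symbols. tram2, for a membrane protein of the translocon, read -0.70 and -3.83 at 24 hpf, then 1.27 and 0.93 at 30 hpf, then -1.09, -0.85 and -1.32 at 48 hpf. Outside the members, its probe A_15_P103941 had 1.37 and 0.54 at 30 hpf and -0.83, -1.25 and -0.54 at 48 hpf. Its probe A_15_P153471 did not show the pattern, with -0.13 and -0.25 at 30 hpf and 0.31, -1.33 and -0.42 at 48 hpf. ssr1, for a subunit of the translocon-associated complex, had 24 hpf values of 0.10 and -0.26 on one probe and 0.07 and -1.29 on the other. The remaining members were mbtps1, the site-1 protease of the Golgi, ap3s1, a subunit of the AP-3 adaptor, and zgc:154116 (b4galt1l), a galactosyltransferase. These 3 read between -0.16 and 0.49 at 24 hpf.

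Nucleotide synthesis, growth metabolism and replication gave 4 well-measured members. cad encodes the enzyme of the first steps of pyrimidine synthesis, and it had 1.25 and 1.74 at 30 hpf, which turned to -1.0004, -0.85 and -1.10 at 48 hpf, with 24 hpf values of -0.55 and -5.31. si:dkey-183n20.16 (pfas), an enzyme of purine synthesis, had 1.03 and 0.80 at 30 hpf against -0.83, -1.09 and -0.97 at 48 hpf, and read -0.80 and -1.90 at 24 hpf. odc1 encodes ornithine decarboxylase, which starts polyamine synthesis, and mcm7 encodes a subunit of the replicative helicase. mcm7 read -0.48 and -0.24 at 24 hpf, then 0.61 and 0.83 at 30 hpf, then -0.93, -0.62 and -0.71 at 48 hpf. All 4 genes were below 0 on 24 hpf replicate 1, and all but odc1, which read 0.11, were below 0 on replicate 2. Most probes with values this seldom repeated were below 0 too, as only 36.9% were above 0 on replicate 1 and 33.2% on replicate 2.

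Transcription factors among the members were vent, a ventrally expressed homeobox gene, gata5, which acts in heart and endoderm formation, and tbx6 (tbx16l), a T-box gene of the mesoderm. gata5 had 1.05 and 0.65 at 30 hpf, which turned to -1.38, -2.11 and -0.88 at 48 hpf, with 24 hpf values of 0.35 and 0.08. tbx6 had 0.89 and 1.80 at 30 hpf against -0.60, -0.61 and -0.83 at 48 hpf, and read -0.06 and -0.20 at 24 hpf. Of the 3, only gata5 was well-measured. The tbx6 values hold for this probe only, as another probe of the gene read the opposite way. gata5 was also the only member in the list of heart markers used here, which held 5 placed probes, too few to describe a cell type. Of the 157 placed probes in the list of chromatin and transcription factors, 2 (1.27%) were members. This was near the 1.33% of all placed probes with a symbol.

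The other 15 named members were of mixed function. rad23b, which acts in recognising damaged DNA for excision repair, read -0.01 and -1.22 at 24 hpf, then 1.97 and 1.73 at 30 hpf, then -1.06, -2.01 and -0.93 at 48 hpf. zgc:162909 (slc30a1b), a zinc transporter, had 0.89 and 1.85 at 30 hpf, which turned to -0.79, -2.88 and -2.24 at 48 hpf, with 24 hpf values of -0.07 and 0.32. LOC560275 (nuak2), a kinase related to AMPK, had 1.27 and 0.87 at 30 hpf against -1.43, -0.65 and -1.27 at 48 hpf, and read 1.38 and 0.96 at 24 hpf. Like 2 of the ccng1 probes, nuak2 was higher on all 4 arrays of 24 and 30 hpf. cyp1a, the detoxifying enzyme induced through the aryl hydrocarbon receptor, read 1.499 and 0.82 at 24 hpf, then 2.03 and 0.66 at 30 hpf, then -2.80, -0.59 and -2.89 at 48 hpf. It followed the same order, but its values were found up to 50 times on an array, so it was not well-measured.

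zgc:109868 (krt92), a keratin in the epidermis list, had 1.08 and 0.67 at 30 hpf, which turned to -1.37, -1.03 and -2.55 at 48 hpf, with 24 hpf values of 0.57 and 0.66. ckmt1, a mitochondrial creatine kinase in the skeletal muscle list, had 0.77 and 0.64 at 30 hpf against -1.01, -0.84 and -0.64 at 48 hpf, and read 0.09 and 0.04 at 24 hpf. zgc:92520 (slc25a40), a mitochondrial carrier, read 0.42 and -0.20 at 24 hpf, then 0.61 and 0.77 at 30 hpf, then -0.68, -0.61 and -0.66 at 48 hpf. The epidermis and skeletal muscle lists had 1 member each, too few to describe a cell type. ypel3, which slows growth in human cells, had 1.57 and 0.59 at 30 hpf, which turned to -0.87, -1.32 and -1.94 at 48 hpf, with 24 hpf values of -0.01 and 0.57. The remaining named members included yes1, a Src-family kinase, and gats (castor2), a relative of an arginine sensor in human. Also among them were LOC100003066 (ndufa4l2a), a relative of a respiratory chain subunit, trpc2 (trpc2b), a cation channel, and zgc:92362 (tatdn1), a predicted nuclease. The last were wu:fc12a01 and LOC100148510, which have no described role. Most of these remaining members lay near 0 at 24 hpf, but LOC100148510 read 3.05 and -0.14, and ndufa4l2a read -0.44 and -2.19.

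Of the 26 gene lists used here, 10 held at least 1 member with a symbol, and apart from that of growth arrest and damage response none held more than 2. The members without a symbol included A_15_P598852, which has no description, with 1.17 and 1.37 at 30 hpf against -0.70, -1.33 and -1.92 at 48 hpf, after 0.75 and -1.69 at 24 hpf. A further one, A_15_P451210, read -0.60 and -2.94 at 24 hpf, then 1.05 and 1.21 at 30 hpf, then -1.03, -1.21 and -0.93 at 48 hpf. On both of these probes replicate 2 of 24 hpf was below replicate 1. Several other members without a symbol went the opposite way.

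Whether the pattern extended to other probes of the member genes could be seen for 14 further placed probes of 12 symbols. By definition none of the 14 met the full rule. Of these, 10 had been named through the 48 hpf list, so all of them were lower at that stage by construction. On both 30 hpf arrays 7 of the 10 were above 0, a looser limit than that of the rule, with values down to 0.14. The same share was not counted over other probes, so it has no background here. A second cad probe (A_15_P105743) had 0.14 and 1.57 at 30 hpf and -1.85, -1.15 and -1.87 at 48 hpf. A second eif3j probe (A_15_P141826) had -0.35 and 0.27 at 30 hpf and -1.72, -0.85 and -1.63 at 48 hpf. At 30 hpf a ckmt1 probe (A_15_P118448) had -0.67 and 0.40, and a col18a1 probe (A_15_P210116) had -0.27 and 0.69. Another ckmt1 probe (A_15_P495472) was above 0 on both of these arrays. A second tbx6 probe (A_15_P168831), named through the 24 hpf list, ran the opposite way to the member, with -1.24 and -0.12 at 30 hpf and 1.37, -0.06 and 1.27 at 48 hpf. The probes of one gene thus did not always fall on the same side of the rule.

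The members nearest to the threshold on the inside were ypel3, eif3j, ssb, metap1 and cyp1a, whose weakest array lay between 0.585175 and 0.593455 from 0 on the log2 scale. Just outside were fam125bb, casp8, zgc:113295, pdcl3 and capn9, between 0.562 and 0.584. The values on both sides of the limit were so close that membership there rested on differences far smaller than the spread between replicates.

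At 24 hpf, which the rule did not use, the members lay on both sides of 0. Their mean log2 ratio over the 2 arrays ran from -2.93 for cad to 1.85 for ccng1, with a median of -0.08. At least 1.5-fold higher on both arrays were 7 members (9.46%), against 6.77% of all probes, and at least 1.5-fold lower on both were 6 (8.11%), against 7.71% of all probes. These shares were near the background. Among the 54 well-measured members, 6 (11.1%) were higher and 6 (11.1%) lower on both arrays, against 2.96% and 16.4% of the 6963 probes of the whole array whose values recurred as seldom. The 7 higher probes were 2 of ccng1 and those of mdm2, sesn3, metap1, nuak2 and cyp1a. The 6 lower ones were those of zfp36l2, gar1, pfas, tram2 and myef2 and the unnamed A_15_P451210. A further 28 members stayed within 1.5-fold on both arrays.

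The 24 hpf arrays gave different pictures. On replicate 1, 19 members (25.7%) were at least 1.5-fold higher, against 24.1% of all probes, and 10 (13.5%) at least 1.5-fold lower, against 25.4%. On replicate 2, 12 members (16.2%) were higher by that much, against 24.0%, and 25 (33.8%) lower, against 25.1%. More members were thus higher than lower on replicate 1, which shared its day with 30 hpf, although the share higher was near that of all probes. On replicate 2, which shared its day with 48 hpf, more were lower than higher. The part of the day in this was not tested. On replicate 1 no member was at or below -2, whereas on replicate 2 there were 15, at a background of 3.15% of all probes and 13.1% of those whose values recurred at most 10 times. There were 7 members at least 1.5-fold higher on replicate 1 and lower on replicate 2 (background 4.71%), and 0 the other way round.

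Among the well-measured members, 15 of 54 were at least 1.5-fold higher on replicate 1, against 11.4% of the 6963 probes of the same kind on the whole array, and 7 were lower, against 28.3%. On replicate 2, 9 were higher, against 14.4%, and 23 were lower, against 45.9%. At the 1.5-fold limit, low values on replicate 2 were thus shared by the other probes of this kind. At the limit of -2 they were less so, since 15 of the 74 members were a larger share than the 13.1% of these probes. Their median over the whole array was -0.21 on replicate 1 and -0.46 on replicate 2, and that over the well-measured members was 0.19 and -0.35.

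The probes of mdm2, ccng1, sesn3 and phlda3 agreed better on replicate 1 of 24 hpf than on replicate 2. On replicate 1 all 7 were at least 1.5-fold higher, between 0.92 and 1.81. On replicate 2, 5 of 7 were above 0, with 4 at least 1.5-fold higher and 1 at least 1.5-fold lower. Of all probes, 24.1% were that much higher on replicate 1, and on replicate 2 24.0% were higher and 25.1% lower. The group was assigned by hand and its probes come from 4 genes, so they are not 7 independent readings. The 14 probes of RNA processing, ribosome assembly and translation had medians of -0.02 and -1.19 on these arrays. No difference between the groups was tested.

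**Figure D4:**
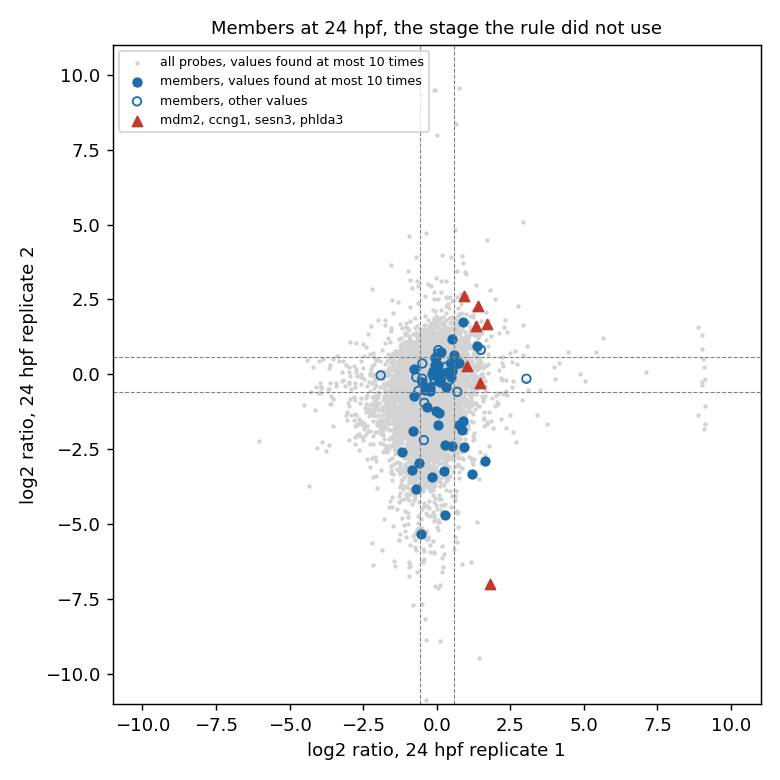
Log2 ratio of tbx5-MO over WT on 24 hpf replicate 1 (horizontal) and replicate 2 (vertical) for the members (filled where well-measured, open otherwise, triangles for mdm2, ccng1, sesn3 and phlda3) and for all probes with values found at most 10 times (grey), with dashed lines at 1.5-fold higher and lower. The members spread over more than 9 log2 units on replicate 2 and reach down to -6.99, whereas on replicate 1 they lie between -1.91 and 3.05.

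limma, fitted to all 43663 probes with a mean per stage over the 7 arrays, tested the 24 hpf mean of each probe against 0. It called 14 probes (0.0321%) at a Benjamini-Hochberg adjusted p below 0.05, and 0 of the 74 members were among them. At an unadjusted p below 0.05 there were 14 members (18.9%), 6 higher and 8 lower, against 12.3% of all probes. The lowest limma adjusted p of a member was 0.301, for the ccng1 probe A_15_P193336, with a mean of 1.85 ± 0.38 (SE, 2 arrays). The other ccng1 probe with both arrays higher (A_15_P100851) had a mean of 1.71 ± 0.39 (SE) and a limma adjusted p of 0.320. zfp36l2 had a mean of -1.88 ± 0.43 (SE) and a limma adjusted p of 0.321, sesn3 one of 1.77 ± 0.50 (SE) and 0.343, and mdm2 (A_15_P118884) one of 1.48 ± 0.45 (SE) and 0.347. No member passed this test at 24 hpf. The spread was estimated over all 7 arrays, including those that chose the members. The p-values of members in such fits are therefore not wholly outside the rule. In a limma fit of the 24 hpf arrays alone, the lowest adjusted p of a member was 0.854. When the test was limited to the 6963 probes with seldom repeated values, 3 of the 54 well-measured members (5.56%) were called, against 2.73% of all probes in that fit. They were both of these ccng1 probes and zfp36l2, with limma adjusted p of 0.040, 0.043 and 0.046. Over the alternatives tried, the adjusted p of the 12 well-measured members past 1.5-fold on both arrays ran from 0.0141 to 0.854.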

How the data were processed

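Cy5-labelled tbx5-MO and Cy3-labelled WT cDNA were hybridised to Agilent zebrafish arrays, and the log2 ratios that the authors deposited came from a GenePix scan and normalization with GeneSpring GX. Their direction was read from the dyes as Cy5 over Cy3. How the normalization was done, whether weak spots were removed and which genome build was used: not given in the sources used here. Separate lists by the authors name the probes that were at least 1.5-fold lower throughout a stage. The value table carried no probe names, so a listed probe was named where its values on all arrays of its stage matched those of 1 row alone, to 5 decimals. All 916 probes of the 48 hpf list were placed. The 24 hpf array called replicate 2 carries another number in the list.

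Members were counted in Python 3.11.15. limma 3.58.1 in R 4.3.3 (lmFit, eBayes) fitted a mean per stage to the 7 arrays with no further normalization and tested 24 hpf only, two-sided, with Benjamini-Hochberg adjustment over all probes and a threshold of 0.05. The step was tested on simulated data. The members, gene lists and roles were chosen with earlier results of these data known. Values on every array are given for the 20 members with the largest contrast among those with values repeated at most 10 times on the rule's arrays, those past 1.5-fold on both 24 hpf arrays with values found at most 10 times on all 7, up to 4 per gene list, and those just inside the threshold. Other values were given as examples. Alternatives were centring, scaling, other thresholds, robust moderation, blocks, averaged probes, fewer probes and each array left out. The files held no probe sequences, and none is shown. The number of arrays limits the precision. 1 item is not reported here: its probes are in the counts over the 74 members, but not in the groups by role, the damage-response list or the values given, so those do not stand for every member.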

Additional observations from a re-analysis of the deposited data

Results flagged for a closer look

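At 24 hpf, 7 members (9.46%, against 6.77% of all probes) were at least 1.5-fold higher on both arrays. By the rule the same probes were lower on all 3 arrays of 48 hpf. Conversely, 6 members (8.11%, against 7.71% of all probes) were at least 1.5-fold lower on both 24 hpf arrays, and by the rule they were higher on both 30 hpf arrays. Both shares were near the background. Every array of one stage moved one way and every array of the other stage the opposite way, which is why these counts are given here. One side of each contrast was fixed by how the members were chosen, and the difference between the stages was not tested.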

How the results depend on the processing

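The count of 74 members became 129 at a log2 limit of 0.5 and 14 at a limit of 1, and between 144 and 211 without one of the 5 arrays of the rule (153 without 30 hpf replicate 1, 211 without 30 hpf replicate 2, and 183, 148 and 144 without 48 hpf replicates 1, 2 and 3). Centring gave 77 and scaling 94 members, and each shared 72 with the 74. At a limit of 1, 3 members were higher and 1 lower on both 24 hpf arrays. On replicate 2 of 24 hpf alone (without replicate 1), 12 were higher and 25 lower. On replicate 1 alone (without replicate 2), 19 were higher and 10 lower.

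The 0 members called at 24 hpf became 3 when only probes with values found at most 10 times were tested, 11 (14.9%), all lower, without 24 hpf replicate 1, and 1 (1.35%), higher, without 24 hpf replicate 2. Over all probes these last fits called 2.55% and 3.60%, so the single member lay below the background. There the lone 24 hpf array is assumed to vary like the other stages. With the day in the array names as a block, an alternative added after the data were seen, 8 members (10.8%, 1 higher and 7 lower) and 2054 probes (4.70%) were called, and that term takes up the whole difference between the 24 hpf arrays. With the replicate number as a block (replicate block), 0 members and 0 probes of the whole array were called. Residuals of same-numbered arrays correlated between -0.0095 and 0.020. With 2 arrays at 24 and at 30 hpf, the residuals of the replicates of a stage are equal and opposite. Whether the numbers pair the arrays therefore could not be decided from these values. Under centring, scaling, 24 hpf alone, robust moderation, averaged probes, an adjusted p of 0.1, and without any 30 or 48 hpf array, 0 members were called. Few probes of the whole array were called in these fits either. There were 14 with centring or with robust moderation, 9 with scaling, 0 with 24 hpf alone, and 1 or 2 without a 48 hpf array. The absence of calls was thus not particular to the members. The 24 hpf means of the 12 members tracked kept their sign. These were chosen as past 1.5-fold on one side on both 24 hpf arrays. Leaving out an array therefore could not change the sign, and this is no check of it. With 2 arrays at 24 and 30 hpf, membership and 24 hpf calls rest on few values.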

Other observations

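The 4 probes left out by symbol met the same rule, and their 24 hpf values differed among themselves. ctsc encodes cathepsin C, a lysosomal protease, and its probes had log2 ratios of 0.08 and 0.10 (A_15_P110747) and of 0.85 and 0.67 (A_15_P115439) on the 24 hpf arrays. ctssb.1, for a cathepsin S, read -0.24 and -5.91, and hspa5, for the main chaperone of the endoplasmic reticulum, read 0.27 and 1.10. As among the members, replicate 2 held the lowest value.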
